A study of Rattus norvegicus with 50 samples.

Results

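Lung expression of 9 genes that serve sensory nerves was followed in rats after inhalation of titanium dioxide (TiO2) nanoparticles. They were the neuropeptide genes Tac1, Calca and Calcb, the tachykinin receptors Tacr1 and Tacr2, the peptidase gene Mme, and the nociceptor channels Scn10a, Trpv1 and Trpa1. The genes were found by their names among the gene spots of the arrays, where they had 12 probes in all, and all 9 were among the 25235 genes tested. Tac1 was chosen because it was lower in exposed rats at D3, and Scn10a because it was higher at every day, so those values are given below as a description with no test. The other 7 were chosen for what they do, with earlier results of these data already known.

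The rats were male F344, an inbred laboratory strain, 12 weeks old at exposure. Control rats breathed air and Exposed rats breathed a P25 TiO2 nano-aerosol at 10 mg/m3, through the nose only, for 6 h a day on 5 days a week during 4 weeks. Lungs were taken as exposure ended (D0) or after a recovery of 3 (D3), 28 (D28), 90 (D90) or 180 days (D180). Each day had 5 Control and 5 Exposed rats, and the accessory lobe of each rat was read on its own one-colour Agilent array. Levels are normalized log2 fluorescence intensities, so that a difference of 1 is a doubling, and a level cannot be compared between probes.

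Sensory nerve fibres of the airways have their cell bodies outside the lung, in the vagal and dorsal root ganglia. When irritants open their channels, the fibres release substance P and neurokinin A, which are cut from the Tac1 precursor, and calcitonin gene-related peptide (CGRP), which is made from Calca and Calcb. These peptides widen and open small vessels, contract airway muscle and stimulate secretion, and peptidases of the airway surface, Mme among them, end their action. The neuronal cell bodies thus lie outside the lobe that was measured, and Tac1, Calca and Calcb can also be made by cells within the lung. In bulk tissue, fewer cells of a type and less mRNA per cell cannot be told apart.

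The arrays had 68.7% to 84.5% of their gene spots well above background. All 8 lung tissue markers measured, among them Sftpc and Scgb1a1, were well above background on all 50 arrays. Of 15 neuron markers, 5 (Prph, Nefh, Uchl1, Stmn2 and Avil) were well above background on all 50 arrays and 2 (Nefl and Pou4f1) on none. The 3 early days filled 4 of the 7 slides and the 2 late days the remaining 3, with 1 early array (Exposed replicate 1 of D3) among the late ones.

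**Figure D1:**
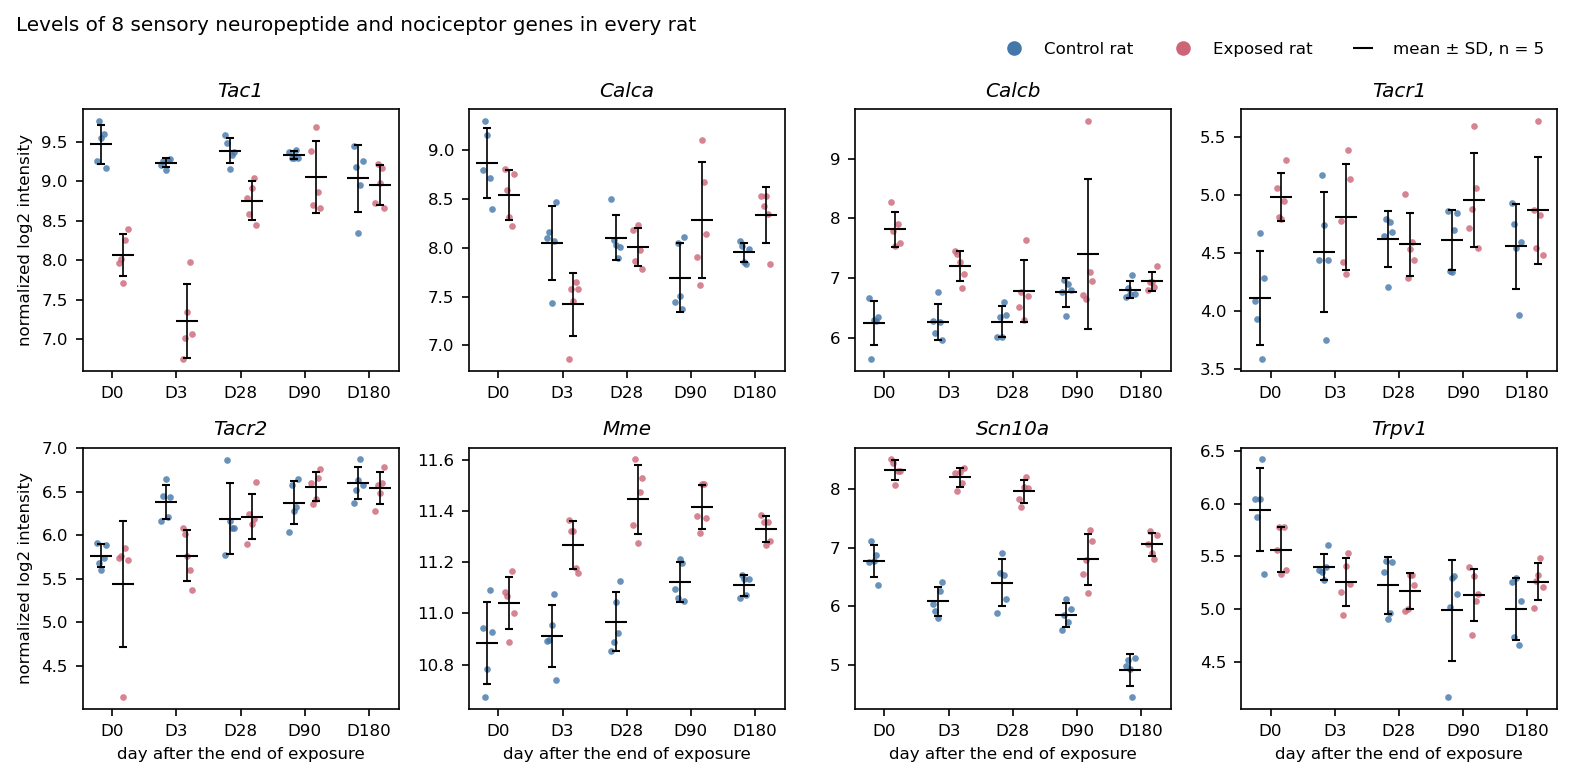
Normalized log2 intensity (vertical axes, each with its own range) of 8 genes in every Control and Exposed rat against the day after the end of exposure, with the mean ± SD of 5 rats as black bars. Tac1 fell in exposed rats at D0, at 8.07 ± 0.27 against 9.47 ± 0.25, and was back among the control levels at D180, whereas the exposed Scn10a values lay above the control values at every day.

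Tac1 was the member with the largest decrease, at D3, the day it was chosen for. The probe used for it lies at chr4:32657551-32657610 (rn4), and a second probe lies at chr4:32651286-32651345 (rn4) on the plus strand. The second probe is shown because it reads the coding stretch of substance P itself. It has 60 bases and is open in its first reading frame, and the capitals mark the 33 bases, 13 to 45, that code for the 11 residues standing before the Gly-Lys-Arg cleavage signal.
Tac1 coding probe: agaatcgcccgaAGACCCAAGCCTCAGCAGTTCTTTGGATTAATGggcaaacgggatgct

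At D0 the Control rats had Tac1 levels of 9.26, 9.76, 9.56, 9.61 and 9.17, and the Exposed rats 7.97, 8.01, 7.71, 8.25 and 8.40. Every exposed value lay below every control value. Tac1 fell by 1.40 on the log2 scale (FC = 0.378, SE 0.19, limma adjusted p = 2.22e-07). Across all genes tested, 1.5% were called lower at D0 at 1.5-fold and an adjusted p under 0.05, and in 3.8% the exposed values lay wholly below the control values. The coding probe gave the same picture, with levels of 7.44 ± 0.14 in Control and 6.40 ± 0.20 in Exposed rats (mean ± SD, n = 5), a change of -1.04 (limma adjusted p = 5.88e-05).

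At D3, the day for which Tac1 was chosen, the Control levels were 9.21, 9.27, 9.15, 9.27 and 9.29, a range narrower than at any other day but D90. The Exposed levels were 6.74, 7.02, 7.35, 7.98 and 7.07. The means stood at 9.24 ± 0.06 and 7.23 ± 0.47, which is a difference of -2.01 (FC = 0.249). The coding probe stood at 7.28 ± 0.17 and 5.51 ± 0.39, and 3 of the 5 Exposed arrays were still well above background there. The lowest Tac1 value, 6.74, came from Exposed replicate 1, the rat on the later slide, and without it the difference was -1.89.

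At D28 the Exposed levels were 8.80, 8.59, 8.92, 9.04 and 8.44 against 9.59, 9.49, 9.16, 9.34 and 9.38 in Control rats. The groups did not overlap, and Tac1 was lower by a log2 change of -0.63 (FC = 0.644, limma adjusted p = 0.0420). In 1.72% of all genes the exposed values lay wholly below the control values at D28, and 0.503% were called lower. This call was lost in 6 of the 10 fits that left out 1 rat, where the highest adjusted p was 0.152, while the coding probe gave -0.74 (limma adjusted p = 0.0139).

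At D90 the Exposed levels were 9.38, 8.70, 9.69, 8.86 and 8.66, spread wider than the 9.30 to 9.40 of Control rats on both sides. The change was -0.28 (95% interval -0.65 to 0.10, limma adjusted p near 1.00). At D180 it was -0.09 (95% interval -0.47 to 0.29), and the groups overlapped. Tac1 in Control rats did not pass the test between D28 and D0 (log2 change -0.08, limma adjusted p = 0.876) or between D180 and D90 (log2 change -0.29, limma adjusted p near 1.00).

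Ordered by mean level, the 5 Control groups and the Exposed rats of D90 and D180 lay between 8.95 and 9.47, followed by the Exposed rats of D28 (8.76), D0 (8.07) and D3 (7.23). Among these last 3, the ranges of D28 and D0 did not overlap and those of D0 and D3 did. Within slides that held both groups of a day, Tac1 was lower in Exposed rats on 4 of 4 slides at D0 (-2.06 to -1.16), on 4 of 4 at D3 (-2.21 to -1.23) and on 3 of 3 at D28 (-0.86 to -0.12).

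**Figure D2:**
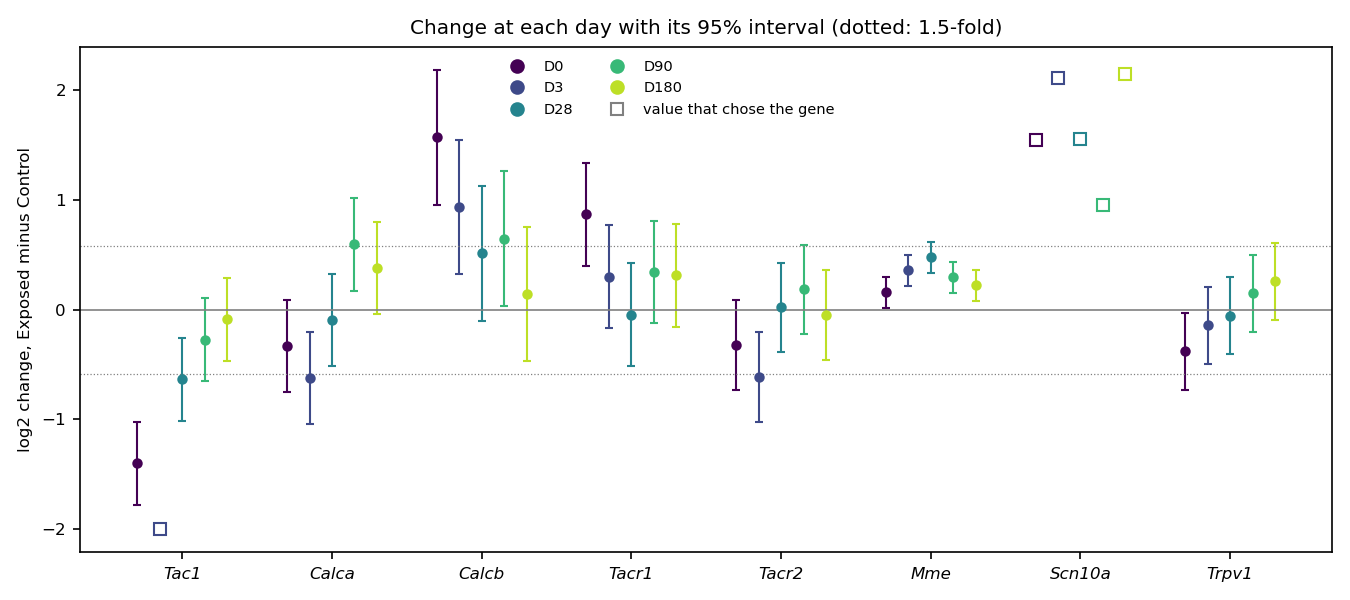
Log2 change from Control to Exposed rats (vertical axis) of 8 genes at the 5 days, as the fitted change with its 95% interval for the tested values and as an open square for the values that chose a gene; dotted lines mark 1.5-fold. The Tac1 changes went from -2.01 at D3 to -0.09 at D180, the Calcb changes were above 0, and all fitted Mme changes lay between 0 and the dotted line.

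Tac1, with the largest decrease among the members at D3, and Scn10a, higher at every day, were chosen for these patterns. Their promoters are shown for that reason. Both are the 250 bases before the RefSeq start in build GRCr8, chr4:36645333-36645582 on the plus strand for Tac1 and chr8:128340299-128340548 on the minus strand for Scn10a. Capitals mark matches, on either strand, to the E-box CACGTG and to TGACG, which is one arm of the cAMP response element.
Tac1: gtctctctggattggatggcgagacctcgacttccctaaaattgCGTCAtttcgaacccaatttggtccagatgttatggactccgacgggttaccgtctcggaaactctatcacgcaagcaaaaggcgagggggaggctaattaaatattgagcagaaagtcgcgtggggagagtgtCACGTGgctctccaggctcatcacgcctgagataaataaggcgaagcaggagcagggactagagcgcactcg
Scn10a: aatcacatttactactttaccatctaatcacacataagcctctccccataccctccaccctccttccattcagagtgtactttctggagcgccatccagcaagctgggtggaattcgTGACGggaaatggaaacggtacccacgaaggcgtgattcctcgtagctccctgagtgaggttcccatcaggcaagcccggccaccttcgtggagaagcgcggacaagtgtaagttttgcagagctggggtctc

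The E-box stood 72 to 67 bases before the Tac1 start, and the TGACG arm 206 to 202 bases before it. Of the 7 members with a promoter in the RefSeq table, Tac1 was the 1 member with CACGTG, which 5.59% of 33469 rat promoters of this length held. TGACG was in 4 of the 7 (Tac1, Calca, Tacr1 and Scn10a), and in 18.2% of all promoters. These are matches of letters, and binding was not measured.

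Calcb, which codes for the beta form of CGRP, moved opposite to Tac1. At D0 its Control levels were 6.66, 5.64, 6.30, 6.28 and 6.35, and its Exposed levels 8.27, 7.79, 7.54, 7.90 and 7.59. The groups did not overlap, and Calcb was over-expressed by a log2 change of 1.57 (FC = 2.98, SE 0.30, limma adjusted p = 0.000177), on a day when 2.7% of all genes were called higher and the exposed values lay wholly above in 4.87%. It was higher within 4 of 4 slides, by 1.29 to 1.90.

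At D3 the Exposed Calcb levels were 7.45, 7.40, 7.26, 6.83 and 7.07 against 6.27, 6.08, 6.76, 6.26 and 5.96 in Control rats. The lowest exposed rat lay just above the highest control rat. The change was 0.94 (FC = 1.91, limma adjusted p = 0.0374), beside 2.01% of genes called higher and 3.55% lying wholly above. With slide as a block the adjusted p was 0.0735, and 7 of the 10 fits without 1 rat also missed the threshold, although Calcb was higher within 4 of 4 slides, by 0.56 to 1.05.

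From D28 on, Calcb did not pass the test. At D28 the change was 0.51 (95% interval -0.10 to 1.13), and 0.30 without Exposed replicate 4, the rat at 7.64. At D90 Exposed replicate 3 had a level of 9.63 while the other 4 Exposed rats ran from 6.64 to 7.10 and the Control rats from 6.36 to 6.97, so that 3 of these 4 lay within the Control range. The change of 0.65 (limma adjusted p = 0.628) became 0.09 without that rat. At D180 the change was 0.14 (95% interval -0.47 to 0.75). The exposure effect at D180 was smaller than at D0 by 1.43 (SE 0.43, limma adjusted p = 0.0465), beside 1.41% of genes whose effect was called lower, and this call was lost with a replicate block (adjusted p = 0.0883) and under normexp background correction (adjusted p = 0.0863).

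Calca lies on the same chromosome as Calcb. The probe used for it was that of transcript variant 2 at chr1:172686203-172686262 (rn4), and the Calcb probe is at chr1:172780881-172780940 (rn4). At D0 the Calca change was -0.33 (95% interval -0.75 to 0.09, limma adjusted p = 0.373), with overlapping groups. Thus the alpha and beta genes of CGRP, whose peptides act on the same receptor, gave changes of opposite sign at D0, and the difference between the genes was not tested.

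At D3 the Exposed Calca levels were 6.86, 7.58, 7.45, 7.65 and 7.58 against 8.10, 8.16, 7.44, 8.07 and 8.47 in Control rats. A control rat at 7.44 lay within the exposed values. Calca was lower by a log2 change of -0.63 (FC = 0.648, limma adjusted p = 0.0441), beside 1.54% of genes called lower at D3. This call was lost in 7 of the 10 fits without 1 rat, with the highest adjusted p (0.188, log2 change -0.48) without Exposed replicate 1, the rat on the later slide. It was also lost when slide was a block (-0.44, with an adjusted p of 0.138), with a replicate block, with D3 fitted alone, under normexp background correction (-0.49), with the matrix values (-0.52) and for the probe of transcript variant 1 (-0.45, limma adjusted p = 0.321).

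At D28 the Calca change was -0.10, at D90 0.59 (FC = 1.51, 95% interval 0.17 to 1.02, limma adjusted p = 0.242) and at D180 0.38 (limma adjusted p = 0.702), none past the test. At D90 the rat with the high Calcb level, Exposed replicate 3, was also the highest of the 10 rats for Calca (9.10), for the variant 1 probe (8.63), for Tacr1 (5.59) and for Tac1 (9.69). Calca fell in Control rats between days, by 0.83 on the log2 scale from D0 to D3 (limma adjusted p = 0.00753) and by 0.77 from D0 to D28 (limma adjusted p = 0.0144), beside 0.848% and 0.983% of genes called lower. These changes among air-breathing rats were larger than the exposure change of Calca at any day.

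**Figure D3:**
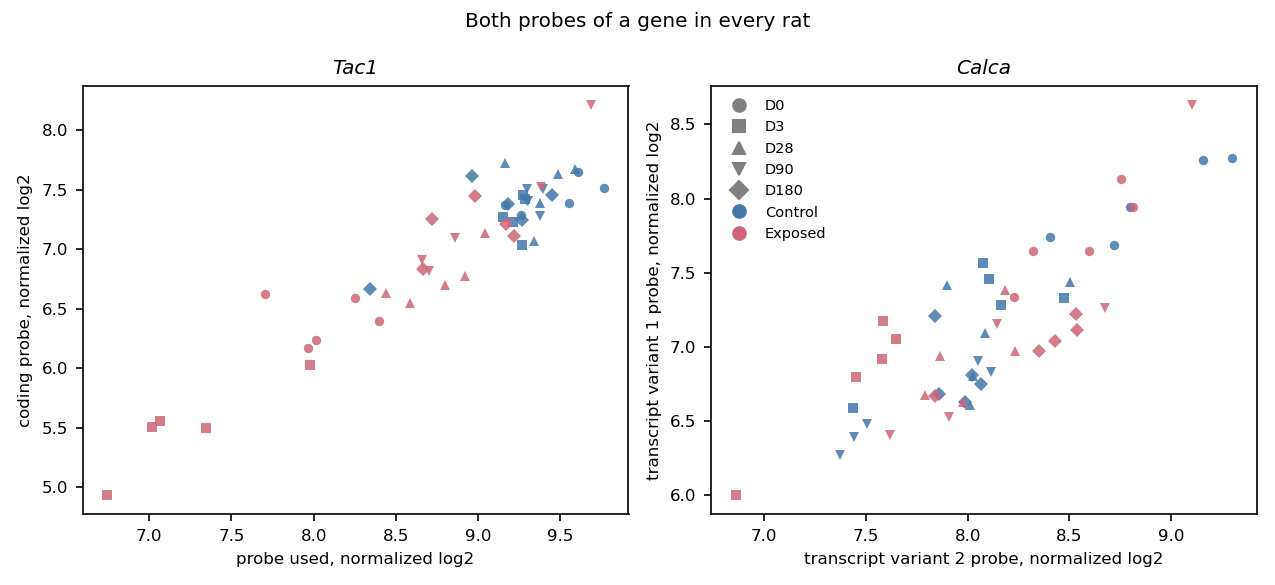
Normalized log2 intensity of one probe against the other in every rat, for the 2 probes of Tac1 and the 2 of Calca; colour marks the group and the symbol the day. Both Tac1 probes placed the Exposed rats of D3 lowest, with means of 7.23 and 5.51, and Exposed replicate 3 of D90 was highest on the coding probe of Tac1, at 8.21, and on the variant 1 probe of Calca, at 8.63.

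The receptors changed at D0 or at D3. Tacr1, the substance P receptor, was well above background on 21 of 50 arrays. At D0 its Control levels were 4.08, 3.93, 4.67, 3.58 and 4.28, well above background on 0 of 5 arrays, and its Exposed levels were 5.05, 4.81, 4.79, 4.95 and 5.30, well above on 3 of 5. The groups did not overlap (limma adjusted p = 0.00692), as in 4.87% of all genes wholly above and beside 2.7% called higher, and Tacr1 was higher within 4 of 4 slides. The call was lost to the fold limit under normexp background correction (log2 change 0.19) and with the matrix values (0.26). Because the Control rats have only a bound, the fold is given as an approximate bound of 1.02-fold. It sets the Exposed mean of 4.98 against 4.95, the mean over Control arrays of the lowest well-above-background signal of any probe. The Exposed mean takes in arrays where Tacr1 was not well above background, so the bound is not strict. At the later days Tacr1 did not pass the test.

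Tacr2, the neurokinin A receptor of airway muscle, was well above background on 49 of 50 arrays. At D3 its Control levels were 6.17, 6.45, 6.64, 6.21 and 6.43 and its Exposed levels 6.08, 6.01, 5.76, 5.60 and 5.37. The groups did not overlap and Tacr2 was under-expressed by a log2 change of -0.61 (FC = 0.653, limma adjusted p = 0.0419), beside 3.47% of genes wholly below, and within 4 of 4 slides. The adjusted p was 0.00228 with slide as a block, but 6 of the 10 fits without 1 rat missed the threshold, with a highest adjusted p of 0.123. The call was also lost with D3 fitted alone (adjusted p = 0.0591), and to the fold limit under normexp background correction (-0.29) and with the matrix values (-0.34). The smooth muscle markers had list means of -0.47 to -0.28 in Exposed and -0.28 to 0.07 in Control rats at D3, with 0 of 7 genes called by limma and 3 (Myh11, Tagln and Lmod1) at an unadjusted p under 0.05, and their part in the Tacr2 change was not tested. At D0 the change was -0.32 (limma adjusted p = 0.372) and rested on Exposed replicate 3 at 4.14, since it was 0.00 without that rat. The changes at D28, D90 and D180 were 0.02, 0.18 and -0.05, none past the test.

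Mme, which codes for neprilysin, a membrane peptidase that cuts substance P, was higher in Exposed rats by less than 1.5-fold and so was not a DEG at any day. At D28 its Exposed levels were 11.35, 11.60, 11.27, 11.48 and 11.53 against 10.85, 10.89, 11.04, 10.92 and 11.13 in Control rats. The change was 0.48 (FC = 1.39, SE 0.07, limma adjusted p = 8.55e-06). Mme passed the adjusted p with no fold limit at D3 (0.36, limma adjusted p = 0.000263), at D28 and at D90 (0.29, limma adjusted p = 0.0198), where 5.1%, 2.41% and 0.701% of all genes were higher by that rule. When each day was fitted alone, the adjusted p was 0.0535 at D28 and 0.0643 at D90, and without Exposed replicate 3 it was 0.0814 at D90. At D0 the change was 0.16 (limma adjusted p = 0.146) and at D180 0.22 (limma adjusted p = 0.148).

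All Exposed Mme values lay above all Control values at D3, D28, D90 and D180, as in 3.55%, 2.03%, 2.24% and 2.48% of all genes, and at D0 the groups overlapped. Mme was higher on every slide that held both groups of a day, by 0.02 to 0.22 at D0 and by 0.40 to 0.44 at D28. The SDs of the Mme groups were 0.04 to 0.16.

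**Figure D4:**
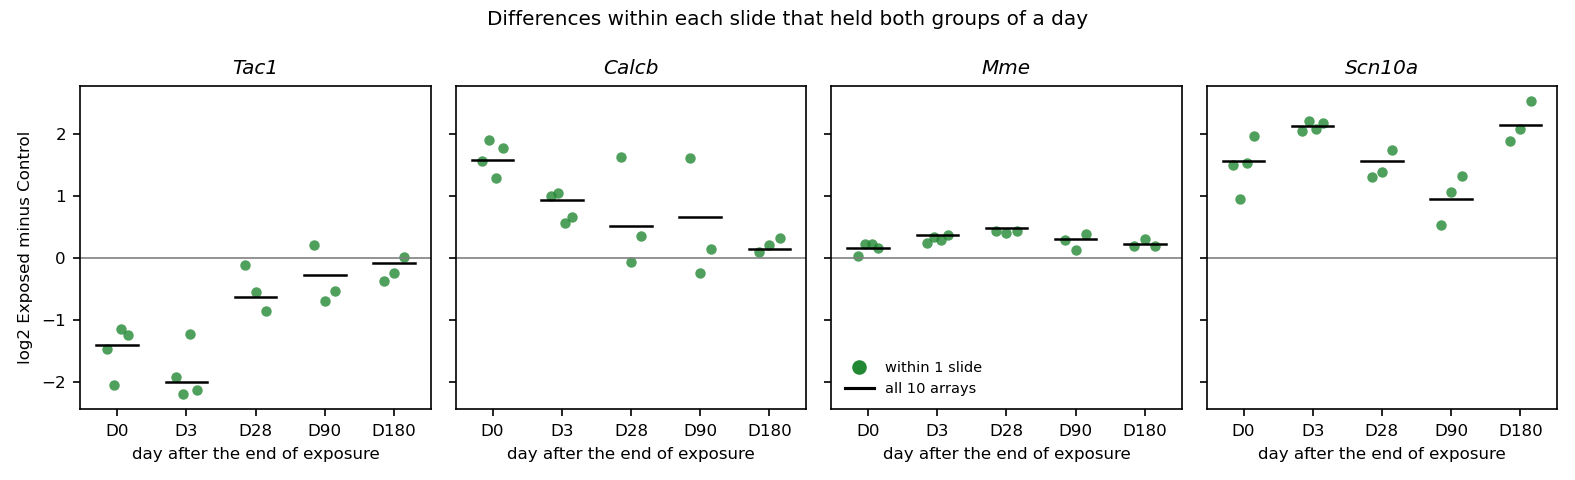
Log2 difference between Exposed and Control rats within each slide that held both groups of a day (green points) and over all 10 arrays of the day (black lines), for Tac1, Calcb, Mme and Scn10a. Mme and Scn10a were higher on every such slide at every day, and the Calcb differences at D28 and D90 ran from -0.07 to 1.62 and from -0.26 to 1.61.

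Scn10a codes for the pore of a voltage-gated sodium channel (Nav1.8) typical of nociceptors. At D0 its Exposed levels were 8.51, 8.44, 8.07, 8.31 and 8.31 and its Control levels 6.75, 7.12, 6.78, 6.88 and 6.36. At D180 its Exposed levels were 7.06, 7.29, 6.91, 6.80 and 7.22, and its Control levels 4.97, 5.08, 4.92, 4.45 and 5.12. The Control levels at D180 were low but well above background on 4 of 5 arrays.

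The differences were 1.55, 2.12, 1.56, 0.95 and 2.15 from D0 to D180 (FC = 2.93, 4.34, 2.95, 1.94 and 4.43), and they are the values the gene was chosen for. In all, 0.0674% of genes (17) were called higher at all 5 days. The Exposed mean went from 8.33 ± 0.17 at D0 to 8.20, 7.96, 6.80 and 7.06 at the later days, and the Control mean from 6.78 ± 0.28 to 6.09, 6.40, 5.85 and 4.91. At D180 the Control mean was the lowest of the 10 groups, and the Exposed mean lay below those of D0, D3 and D28. The D180 difference of 2.15 became 1.08 under normexp background correction with an offset, a correction that compresses low levels. The part of that compression in the smaller value was not tested. The D0 level of Control rats (6.78) was about that of Exposed rats at D90 (6.80), on other slides.

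The other 2 nociceptor channels showed no call. Trpv1, the capsaicin and heat receptor, had changes of -0.38, -0.14, -0.05, 0.15 and 0.26 from D0 to D180, with a 95% interval of -0.73 to -0.03 at D0 (limma adjusted p = 0.165). In Control rats it fell by 0.72 on the log2 scale from D0 to D28 (limma adjusted p = 0.00536), which the second Trpv1 probe gave as -0.32 (limma adjusted p = 0.650). This call was also lost under normexp background correction and with the matrix values, and the Control change from D0 to D3 was -0.54, under 1.5-fold. Trpa1, the receptor of electrophilic irritants, was well above background on 0 of 50 arrays, so no change is given for it.

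Over the 7 members chosen by function, 2 were called at D0, 3 at D3 and 0 at D28, D90 and D180, where limma gave 1, 3 and 1 of them at an unadjusted p under 0.05. The share of all genes called either way was 4.2%, 3.55%, 1.37%, 0.372% and 0.333% at these days. The 2 called at D0 were Calcb and Tacr1, the latter with only an approximate bound of 1.02-fold. Only Calcb was called at more than 1 day. The counts at D0 and D3 were 1 and 0 under normexp background correction and with the matrix values. At D3 the count was 1 with a slide block, with a replicate block or with each day fitted alone, and 0 to 2 in the 10 fits without 1 rat.

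The other genes of the same pathways were counted in lists written from general knowledge, with earlier results of these data known. In the tachykinin list, which held 10 tested genes beside the members, only Tac4 was called. It codes for hemokinin, another ligand of the substance P receptor, and it rose by 0.97 at D0 (limma adjusted p = 8.44e-08), 0.96 at D3 (limma adjusted p = 1.80e-07) and 0.73 at D28 (limma adjusted p = 0.000115). At D90 and D180 it was higher by 0.51 and 0.53, which passed the adjusted p but not 1.5-fold. At D0 and D28 Tac4 was called higher and Tac1 lower.

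In the CGRP and amylin list of 9 genes, 2 were called. Iapp (amylin) rose by 1.79 at D0 (limma adjusted p = 1.34e-09), from a mean of 6.17 to 7.96, and by 0.67 at D28 and 0.84 at D180. Adm (adrenomedullin, a vessel-widening peptide) rose by 0.62 at D0 and was lower by log2 changes of -0.85, -1.05 and -0.60 at D28, D90 and D180. Calcrl and the Ramp genes, which form the receptors of CGRP and adrenomedullin, were not called at any day. Calcr, another receptor gene of the list, was well above background on 0 arrays.

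Among 10 peptide processing genes, Cpe (carboxypeptidase E, which trims peptide precursors) was lower at D3 (log2 change -0.63), and Scg3 was called higher at D28 although it was well above background on 0 of 50 arrays. Of 15 other airway neuropeptides, 6 were called at some day. Pthlh, a parathyroid hormone-related peptide of airway and alveolar epithelium, was lower at D0, D28 and D90 (-0.85, -0.67 and -0.87), Gal at D0 (-0.95), and Cartpt (-0.82), Npy (-0.62) and Penk (-0.60) at D3, while Vip, a relaxant peptide of airway nerves, was higher at D180 (1.34). Gal, Cartpt and Vip were well above background on 6, 7 and 20 of 50 arrays.

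Of 25 other neuropeptide receptors, Oprm1 (the mu opioid receptor) rose at D0 (0.81) and D3 (1.25) and Nmur1 at D3 (0.64), and the somatostatin receptors Sstr1 and Sstr2 fell at D0 (-0.67 and -0.59). Of 24 sensory channels, Asic1 (an acid-sensing channel) fell at D0 (-0.67) and D3 (-0.69), Trpm5 at D0 (-0.82), and Trpv2 rose at D0 (0.64). Trpv3 and P2rx2, called lower at D3 (-0.73 and -0.59), were well above background on 1 and 0 arrays. Of 14 other sodium channel genes 0 were called by limma at any day, 8 had an unadjusted p under 0.05 at some day, and Scn9a and Scn11a, the other nociceptor sodium channels, were well above background on 1 and 9 of 50 arrays.

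Of 18 neurotrophins and their receptors, Gdnf (-1.25) and Ntf3 (-0.74), both growth factors of sensory neurons, fell at D3. The 8 lists had 125 genes tested. Of these, 11 were called at D0 (8.8%) and 12 at D3 (9.6%), beside 4.2% and 3.55% of all genes. At D28, D90 and D180 the counts were 5, 2 and 3 (4.0%, 1.6% and 2.4%), beside 1.37%, 0.372% and 0.333% of all genes. The lists were chosen with earlier results known, and the counts include Scg3 and P2rx2, well above background on 0 arrays. At D0 and D3 the list medians ran from -0.39 (peptide processing at D3) to 0.20 (tachykinin system at D3), beside a median over all genes of -0.01 at D0 and 0.00 at D3.

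**Figure D5:**
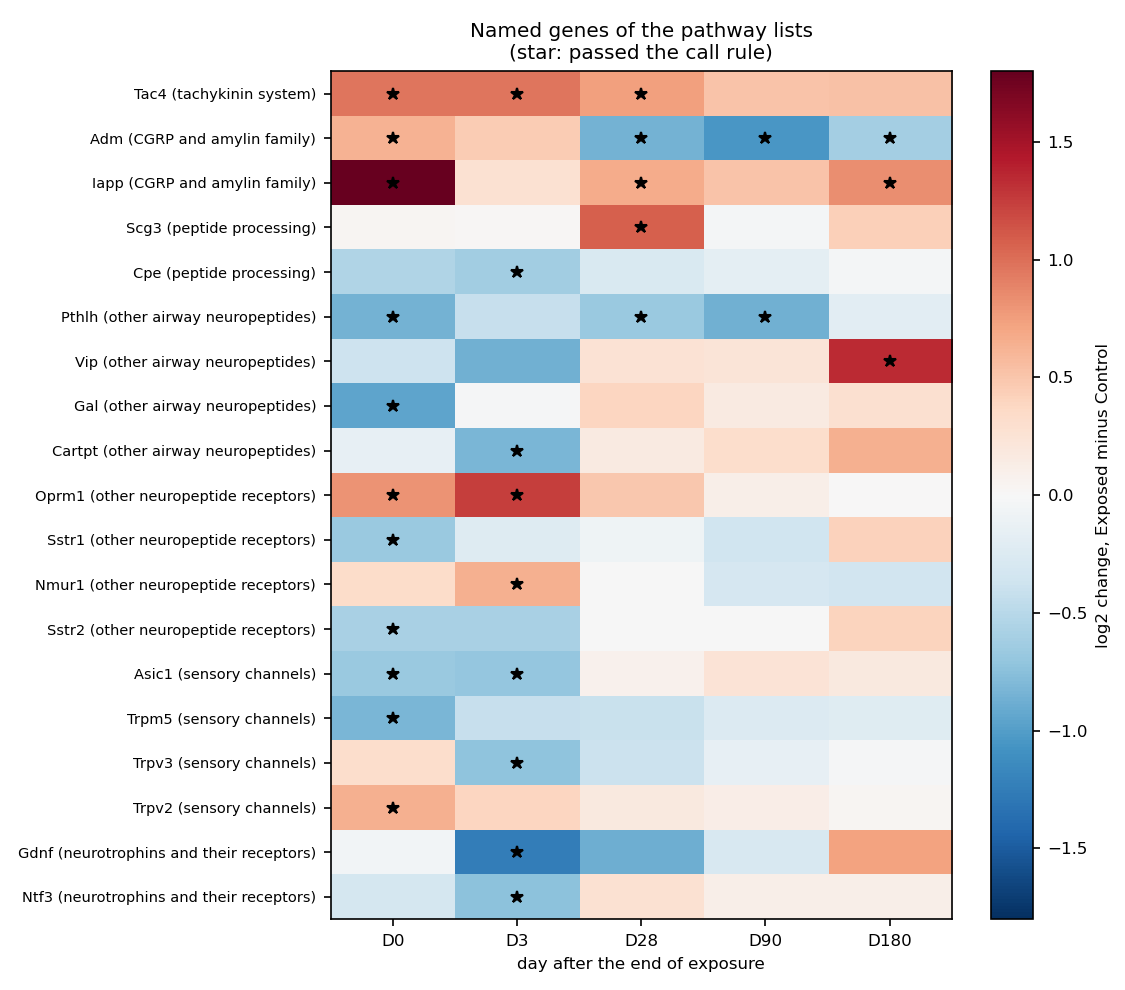
Log2 change from Control to Exposed rats (colour) of the 19 named pathway genes at each day, with a star where the call rule was passed. Most stars stand at D0 and D3, and Iapp at D0 is the darkest cell, at 1.79.

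Marker lists of other cells were counted by the same call rule. Over all genes, 4.2%, 3.55%, 1.37%, 0.372% and 0.333% were called either way from D0 to D180. Of 15 neuron markers, 1 rose (Tubb3) and 1 fell (Avil) at D0, and 1 rose (Tubb3) and 2 fell (Stmn2 and Isl1) at D3. The mean of the list, each gene centred on its mean over all arrays, ran from 0.01 to 0.16 in Exposed and from -0.30 to 0.02 in Control rats at D0, and from -0.12 to 0.14 and 0.00 to 0.24 at D3. Of 8 mast cell markers, Tpsb2 fell at D0 and Tpsab1 and Tpsb2 at D3, with list means of -0.75 to 0.01 in Exposed and -0.33 to 0.89 in Control rats. Of 5 mesothelium markers, Upk3b, Wt1 and Upk1b fell at D3 (list means -0.57 to -0.28 and -0.07 to 0.30), and of 7 smooth muscle markers Actg2 and Cnn1 fell at D0 (-0.47 to -0.05 and 0.24 to 0.42).

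Of 9 pulmonary neuroendocrine cell markers, which belong to airway cells that hold CGRP, 0 were called by limma at any day, 7 had an unadjusted p under 0.05 at some day, and the list means were -0.21 to 0.12 in Exposed and 0.07 to 0.36 in Control rats at D0. Of 8 neutrophil markers, 4 rose at D0, 3 at D3, 2 at D28 and 1 (Cd177) at D90 and at D180. Their list means were 0.39 to 0.78 in Exposed and -0.49 to 0.06 in Control rats at D0. Of 9 clock output genes, 7 fell and 1 rose at D0 and at D3, and 8, 6 and 5 rose at D28, D90 and D180, with list means of -0.54 to -0.02 in Exposed and 0.86 to 1.21 in Control rats at D3. Of 5 other clock genes (Arntl, Npas2, Clock, Cry1 and Nfil3), 2 and 3 rose at D0 and D3, and 4 fell at each later day. Of 10 glucocorticoid responsive genes, 1 rose and 2 fell at D0, 1 rose and 1 fell at D3, and 2 fell at D28. Among 10 epithelial markers Hopx fell at D3, and the lists of 8 lung tissue, 6 glia and 9 cardiac muscle markers had 0 calls by limma at any day, with 5, 2 and 5 genes at an unadjusted p under 0.05 at some day. The part of these cells and of the time of day in the changes of the members was not tested.

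The genes whose levels ran most like those of Tac1 were Alox15, Fam124a, Efemp1, TC590983 and Plekha1, with Pearson correlations of 0.88 to 0.89 over the 50 arrays after each slide's mean was taken out. Alox15 codes for a lipoxygenase and changed by -1.20 at D0. For Scn10a they were Orm1, Kng1, Kng1l1, LOC102555154 and Chia (0.90 to 0.92), of which Orm1 codes for an acute phase protein, Kng1 for kininogen, the precursor of bradykinin, and Chia for a chitinase. Those most like Calcb were Noxa1, Prss30 and Lypd2 (0.85 to 0.90), and those most like Mme were Scp2, Cyfip2 and Pla2g1b (0.88 to 0.90). For Calca they were Cd163, FQ221288 and Lgi3 (0.83 to 0.84). For Tacr1 (Igsf11, Alg8 and Nsa2), Tacr2 (Cct6b, Col4a4 and Rhbdl1) and Trpv1 (Hectd3, Mccc1 and Zfp330) the correlations were 0.66 to 0.76. The arrays share groups and exposure, so these are descriptions with no test.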

How the data were processed

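The scanner files deposited by the authors were made with Agilent Feature Extraction 11.0.1.1 and give a processed intensity for every spot, background-corrected by that software but not scaled to other arrays. A deposited matrix of intensity values matched quantile-normalized median intensities without background subtraction and served as an alternative. Probe positions are in rn4, per the file headers, and promoters in GRCr8.

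Processed signals were log2 transformed and quantile normalized over the 58717 gene spots, and the spots of a probe not marked as outliers were averaged. A probe was kept if at least 5 arrays placed it above the 95th percentile of their negative control spots, and the brightest probe stood for a gene. Differences were tested with limma 3.58.1 (R 4.3.3) over all 50 arrays with a mean per group, Benjamini-Hochberg adjusted over 25235 genes, and called at 1.5-fold and an adjusted p under 0.05. The number of arrays limits the precision. Groups came from the sample labels, and 0 columns belonged to other samples.

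The members and lists were chosen with earlier results of these data known. The text names the members, up to 4 genes per pathway list called at most days (all where a list had 5 or fewer calls), and the 5 genes most like Tac1 and Scn10a or the 3 most like another member. Npy, Penk, P2rx2, the uncalled list genes and the marker genes fall outside this rule and were named after their values were seen. A gene of the lists is not reported here. The marker lists were for lung tissue, neuron, glia, neuroendocrine, mast, neutrophil, smooth muscle, cardiac muscle, mesothelium and epithelial cells, clock output, other clock genes and glucocorticoid response. The fit was tested on simulated data. The limma p-values set a difference between groups against the spread within groups, estimated over all groups. That spread holds differences between rats, arrays and slides, as slide was not in the main fit. Alternatives changed the scaling, background correction, filter, slide, arrays in the fit, pairing, values, probe and fold limit, and left out each rat. The separate fit of second probes was chosen after seeing the data.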

Additional observations from a re-analysis of the deposited data

Results flagged for a closer look

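In each of the 80 groups of 5 values (8 members in 10 groups), the highest or lowest rat was set against the other 4, a check that chance passes in about 5% of groups. It marked 7 rats. Calcb of Exposed replicate 3 at D90 stood at 9.63, with the others at 6.64 to 7.10. Tacr2 of Exposed replicate 3 at D0 stood at 4.14, with the others at 5.72 to 5.85. Calca was low in Exposed replicate 1 at D3 (6.86, others 7.45 to 7.65) and in Exposed replicate 5 at D180 (7.84, others 8.35 to 8.53). Scn10a was low in Control replicate 4 at D180 (4.45, others 4.92 to 5.12), Tacr1 in Control replicate 3 at D28 (4.21, others 4.64 to 4.79) and Trpv1 in Control replicate 1 at D90 (4.17, others 5.02 to 5.32).

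The exposure effect on Calcb differed between D180 and D0 by -1.43 on the log2 scale (limma adjusted p = 0.0465), the only such difference called among the members chosen by function. It was not called in 3 of 5 alternatives, namely normexp background correction (-0.95), the replicate block and the matrix values (-1.08).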

How the results depend on the processing

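The Tac1 and Calcb calls at D0 held in every alternative run, with log2 changes of -1.49 to -1.31 and 1.42 to 1.68 when 1 rat was left out. Under normexp background correction the values were -1.63 for Tac1 at D3, -0.55 for Tac1 at D28, -0.49, 0.59 and -0.29 for Calca, Calcb and Tacr2 at D3, 0.19 for Tacr1 at D0, and 1.18, 1.42, 1.04, 0.54 and 1.08 for Scn10a from D0 to D180, which leaves 1 and 0 of the 7 members chosen by function called at D0 and D3. With the matrix values, Calca, Calcb and Tacr2 at D3 were -0.52, 0.68 and -0.34, Tacr1 at D0 was 0.26, Scn10a was 1.29, 1.56, 1.17 and 1.28 at D0, D3, D28 and D180, and again 1 and 0 members were called. With slide as a block, Calca (-0.44) and Calcb (0.82) at D3 lost their calls and 1 was left at D3. With only the arrays of a day, Tac1 at D28 (-0.63), Calca (-0.63) and Tacr2 (-0.61) at D3 lost theirs, which left 1 at D3. Over all probes, Calca at D3 was -0.54, and its other probe gave -0.45, both without a call. The cause was not tested. With no fold limit, Mme added 1 member at D3, 1 at D28 and 1 at D90, and the lists had 18, 26, 8 and 4 calls at D0, D3, D28 and D90. These list counts take in both directions. Of all genes, 5.1%, 2.41% and 0.701% were higher by that rule at D3, D28 and D90, and the share lower is not given here.

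Same-numbered rats did not deviate together (25 pairs, correlations of -0.35 to 0.45, median -0.03, with 6 correlating best with their own number), so the numbers were not taken as pairs. With a replicate block, Tac1 at D28 (-0.63), Calca (-0.63) and Calcb (0.94) at D3 lost their calls and 1 of the 7 members was called at D3, and all genes gave 1035 calls at D0.

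Without 1 rat, the ranges were -2.19 to -1.89 for Tac1 at D3, -0.71 to -0.56 for Tac1 at D28, -0.78 to -0.48, 0.86 to 1.06 and -0.69 to -0.52 for Calca, Calcb and Tacr2 at D3, 0.74 to 1.01 for Tacr1 at D0, 1.45 to 1.64, 2.05 to 2.20, 1.43 to 1.69, 0.83 to 1.096 and 2.03 to 2.21 for Scn10a, and 0 to 2 calls among the 7 members at D3. Signals near background limit Tacr1 and Trpv1, so the Tacr1 values at D0 stand only for an approximate bound of 1.02-fold. Trpa1 was not measurable.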
